A study of Mus musculus with 4 samples.

Results

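The CD4 and CD8 co-receptor genes Cd4, Cd8a and Cd8b1 were examined on Affymetrix Mouse 430 2.0 arrays, which report each transcript through 1 or more probe sets, groups of short oligonucleotides read together. Members were all probe sets whose platform gene symbol is 1 of the 3 genes, which gave 8 of the 45037 probe sets that are not controls. Of these, 2 belong to Cd4, 5 to Cd8a and 1 to Cd8b1, and the 3 genes stand among 18193 with a probe set of their own. The normal group was 2 arrays of CD4+/8+ double-positive (DP) cells from thymus, with genotype WT. The tumour group was 2 arrays of DP cells from a peripheral tumour (thymoma) that over-expressed Notch1-IC, the active intracellular part of the Notch1 receptor, with genotype T-ALL (T-cell acute lymphoblastic leukaemia). The genetic background of all 4 is given as WT C57/BLACK6. The sample type label calls the normal samples tumour cells too, against their title, source and genotype. The sources used here do not give the age of the mice, how Notch1-IC was introduced, or whether replicate arrays hold RNA of different animals. P-values thus measure the spread between these arrays alone, which could be technical, and tissue site cannot be told apart from transformation.

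CD4 is a single-chain receptor that binds MHC class II, and CD8 is a dimer of an alpha chain (Cd8a) and an alpha or beta chain (Cd8b1) that binds MHC class I. Both bring the kinase Lck to the T-cell receptor (TCR). Thymocytes begin without either, switch both on together at the DP stage and later keep 1 of them. Enhancers control the Cd8a and Cd8b1 genes and an enhancer and a silencer control Cd4, through factors such as Runx proteins, E proteins, Satb1 and ThPOK (Zbtb7b).

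The arrays first showed the difference in Notch1 that their labels give. The more intense of its probe sets read 1104 and 1098 intensity units in the normal arrays and 7155 and 6417 in the tumour arrays, a rise of 2.62 ± 0.07 (log2, SE, n = 2 arrays per group, limma adjusted p = 4.48e-08). Whether that probe set also reads the introduced sequence is not known. The background level of an array, its highest reading among 27 control probe sets for bacterial genes that showed no spike signal, lay between 12.3 and 17.8. Control probe sets at the 3' end of beta-actin over those at its 5' end, a ratio that rises as RNA is shortened, gave 1.28 and 1.20 in the normal arrays and 2.46 and 2.53 in the tumour arrays, and 0.912 and 0.897 against 1.84 and 1.85 for Gapdh. Its part in the results was not tested. Cd4, Cd8a and Cd8b1 each had a probe set above background on all 4 arrays, but in bulk RNA a mixture of cells that carry either co-receptor would give that too, so it is no check of the DP label.

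Promoters were sought for all 3 genes. The promoter of Cd8a is printed because RefSeq's promoter table (GRCm38.p6) held only this 1 of the 3 genes. The 250 bases before its start lie at chr6:71373177-71373426 on the + strand, read 5′ to 3′, and capitals mark the motif matches.
Cd8a promoter: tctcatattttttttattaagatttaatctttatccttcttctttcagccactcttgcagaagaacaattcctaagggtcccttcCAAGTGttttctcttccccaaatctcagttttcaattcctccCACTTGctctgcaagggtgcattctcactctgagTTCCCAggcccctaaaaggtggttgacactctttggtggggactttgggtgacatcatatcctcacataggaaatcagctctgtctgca
Both strands were searched for CANNTG (E-box, read by E proteins), TGNGGT (Runx), TGGGAA (the core read by RBPJ, the DNA-binding partner of Notch) and AGATAA (read by Gata3 and related factors). There were 2 E-box matches, which begin 165 and 123 bases before the start, and 1 match to the RBPJ letters on the opposite strand, which begins 89 bases before it; none of the 3 overlap. Neither the Runx nor the Gata3 letters were in this window. Over 32851 promoter windows of the same length, 66.2% held CANNTG, 40.1% TGNGGT, 21.6% TGGGAA and 9.99% AGATAA. These matches describe the letters only.

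All 3 co-receptor genes were expressed in the tumour cells at a fraction of their level in normal DP cells. On the leading probe set of each gene, the one with the highest mean over the 4 arrays, Cd8a was 6.72-fold lower, Cd8b1 4.56-fold lower and Cd4 4.26-fold lower. Every one of the 8 probe sets was lower in both tumour arrays than in both normal arrays. By limma's moderated test with Benjamini-Hochberg adjustment over all 45037 probe sets, 8 of 8 fell and 0 rose. Of all probe sets, 11.5% were called lower and 29.1% had both tumour arrays below both normal ones. The log2 differences of the 8 ran from -4.32 to -1.34 with a median of -2.34, against a median of -0.02 over all probe sets. In bulk samples, fewer cells of a type and less RNA per cell cannot be told apart. The calls rest on a variance prior that follows the level of expression and is fitted with limma's robust option. The constant prior used as the alternative dropped both the trend with level and the robust option, and neither was dropped alone. With a constant prior, limma called 0 of the 45037 probe sets (11337 had an unadjusted p below 0.05), and the 8 had adjusted p between 0.0684 and 0.150.

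**Figure D1:**
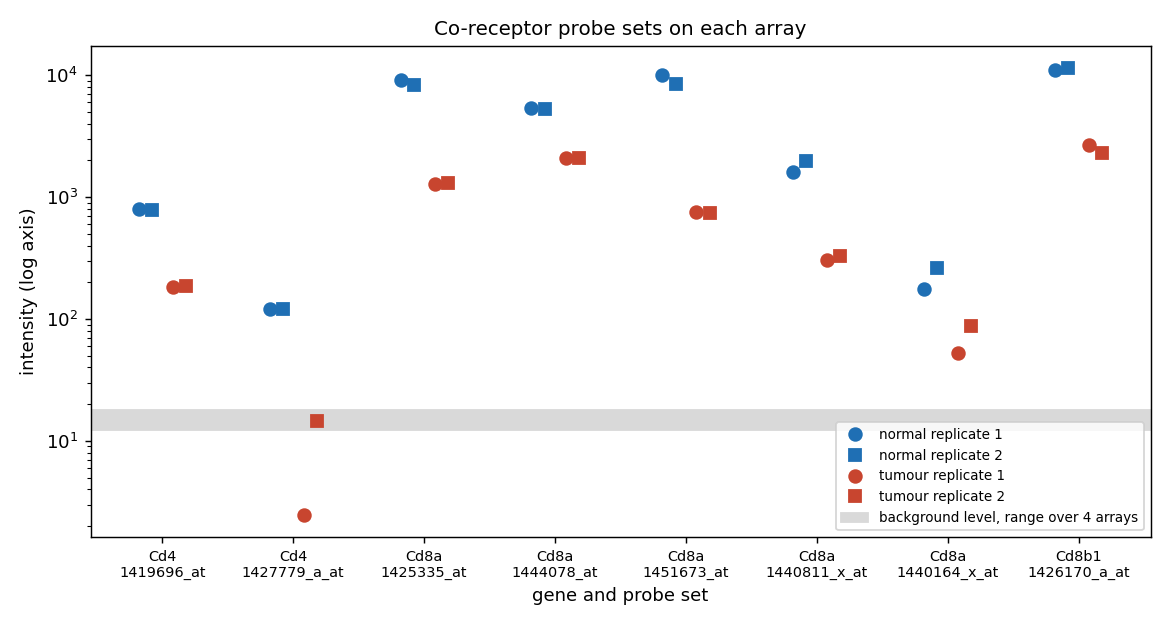
Intensity of each co-receptor probe set (log axis) on each of the 4 arrays, with blue for normal, red for tumour, circles for replicate 1 and squares for replicate 2. The grey band is the range of the background level, 12.3 to 17.8. Red points lie below blue points for all 8 probe sets. For 1427779_a_at of Cd4, tumour replicate 1 lies below the band and tumour replicate 2 within it, and all other points lie above it.

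Cd8a encodes the alpha chain, which every form of CD8 on T cells needs. Its leading probe set, 1425335_at, read 9074 and 8383 in the normal arrays and 1287 and 1310.3 in the tumour arrays. The tumour arrays differed by 0.03 (log2) from each other and the groups lay far apart. The difference was -2.75 ± 0.07 (log2, SE, 95% interval -2.90 to -2.60, limma adjusted p = 2.08e-08), and 14.9% of the normal level was left.

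Of the Cd8a probe sets, 1451673_at lost most. It read 9963 and 8410.4 in the normal arrays against 752 and 741 in the tumour arrays. This was 12.3-fold lower (-3.62 ± 0.09, log2, SE, limma adjusted p = 2.08e-08), with 8.16% left. Both 1451673_at and 1425335_at are annotated to the same GenBank record, M12825, yet their losses were unequal. Within an array, 1451673_at stood above 1425335_at by 0.13 and 0.00 (log2) in the normal arrays and below it by 0.77 and 0.82 in the tumour arrays. The annotation lists several transcripts of Cd8a, and which transcript each probe set reads was not analysed here.

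The smallest loss was that of 1444078_at, annotated to the record BB154331, which RefSeq lists as a synonym of Cd8a. It read 5397 and 5251 in the normal arrays and 2091 and 2111 in the tumour arrays, so 39.5% was left. The replicates were within 0.04 (log2) of each other in both groups, and the difference was -1.34 ± 0.06 (log2, SE, limma adjusted p = 5.96e-07). Against 1451673_at, the log2 difference within an array changed by -2.27 between the groups, from 0.78 ± 0.14 to -1.49 ± 0.03 (SD, n = 2), a 4.84-fold unequal change. That was the largest of the 10 pairs of Cd8a probe sets. The smallest was 0.25, between 1440811_x_at and 1425335_at, and 1 pair, 1440164_x_at with 1444078_at, overlapped between the groups. The 3' to 5' ratios given above were higher in the same tumour arrays, and their part in these unequal losses was not tested.

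The other Cd8a probe sets are of the _x_at class, which may also bind other transcripts. Probe set 1440811_x_at read 1601 and 1987 in the normal arrays against 307 and 326 in the tumour arrays (-2.50 ± 0.12, log2, SE, limma adjusted p = 6.75e-07). The dimmer 1440164_x_at read 175 and 264 against 52.1 and 87.55 (-1.67 ± 0.28, adjusted p = 0.00184). It was the less repeatable of the pair, with gaps of 0.59 and 0.75 (log2) within the normal and tumour groups.

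Cd8b1 encodes the beta chain, which pairs with the alpha chain in the form of CD8 that thymocytes carry. Its only probe set, 1426170_a_at, read 11084 and 11413 in the normal arrays and 2672 and 2281.5 in the tumour arrays. The normal arrays differed by 0.04 (log2) and the tumour arrays by 0.23, and the groups did not overlap. The difference was -2.19 ± 0.08 (log2, SE, 95% interval -2.36 to -2.02, limma adjusted p = 1.57e-07), with 21.95% left. Its normal readings lie near those of the most intense hybridization controls, the Cre set at 11734 to 18701, which differed by only -0.08 to 0.03 (log2) between the groups.

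Cd4 was read at lower intensity, through a pair of probe sets that disagreed in size but not in direction. The leading one, 1419696_at, read 799 and 778 in the normal arrays and 183 and 188 in the tumour arrays. Replicates agreed within 0.04 (log2) in both groups. The difference was -2.09 ± 0.11 (log2, SE, 95% interval -2.34 to -1.84, limma adjusted p = 1.40e-06), with 23.5% left. The dimmer 1427779_a_at, of the class that reads several transcript forms of 1 gene, read 120.60 and 119.95 in the normal arrays against 2.47 and 14.58 in the tumour arrays. Tumour replicate 1 lay below its background of 17.8 and tumour replicate 2 just above its background of 13.3, so the log2 difference of -4.32 ± 0.71 (SE, limma adjusted p = 0.00162) rests on readings near the floor of the array. It was -3.04 without tumour replicate 1, -5.61 without tumour replicate 2 and -2.52 with a pseudocount of 16 (log2), and without normal replicate 1 its call ended (adjusted p = 0.0528).

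**Figure D2:**
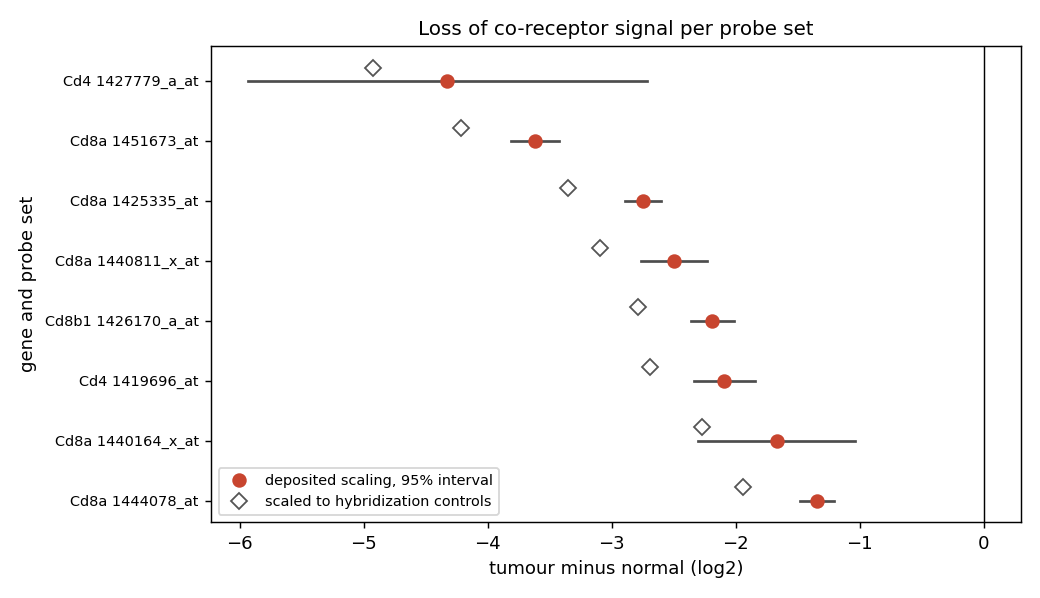
Tumour minus normal difference (log2) of each co-receptor probe set, as deposited (red points, with limma's 95% interval) and after scaling to the BioB, BioC and BioD hybridization controls (open diamonds). All points lie left of 0, from -1.34 for 1444078_at of Cd8a to -4.32 for 1427779_a_at of Cd4.

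The bacterial BioB, BioC and BioD controls, added to every sample at hybridization, read 0.60 (log2) higher in the tumour arrays on average, over a range of 0.28 to 0.91 for 14 probe sets. Scaling the arrays to them lowers every probe set by that amount and moved the median of all probe sets from -0.02 to -0.63. The 4 Cre probe sets, also hybridization controls, differed by only -0.01 (log2) on average and were not used for it. With that scaling the leading probe sets differed by -3.35 for Cd8a, -2.79 for Cd8b1 and -2.69 for Cd4 (log2). Over all probe sets it gave 2074 higher and 11539 lower ones, against 5084 and 5189 as deposited. The 8 co-receptor probe sets fell under both scalings.

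Whether the 3 genes lost signal to the same degree was asked with ratios within each array. A scale factor common to a whole array cancels in such ratios, but a shift that varies with intensity does not. The dimmer BioB, BioC and BioD controls and the brighter Cre controls shifted unequally between the groups, as given above. Cd4 was also read at lower intensity than Cd8a and Cd8b1, and the part of such a shift was not tested. Cd8a lost more than Cd4 on the leading probe sets. The log2 difference Cd8a minus Cd4 was 3.51 and 3.43 in the normal arrays and 2.82 and 2.80 in the tumour arrays, a change of -0.66, or 1.58-fold. Cd8a minus Cd8b1 was -0.29 and -0.45 in the normal arrays and -1.05 and -0.80 in the tumour arrays, a change of -0.56. For Cd8b1 minus Cd4 the readings were 3.79 and 3.87 against 3.87 and 3.60, a change of -0.10, and the groups overlapped. The exact two-sided permutation test over 3 gene pairs gave p = 0.333, 0.333 and 0.667 (0.5, 0.5 and 0.667 after Benjamini-Hochberg adjustment), and 0.333 is the smallest p that 2 against 2 arrays allow. The order also depends on the probe sets used. On 1444078_at, a bright and repeatable Cd8a probe set, the log2 difference was only -1.34. That is a smaller loss than on the leading probe sets of Cd4 (-2.09) and Cd8b1 (-2.19), so with it the place of Cd8a in the order turns. With the mean of all probe sets of a gene Cd8a minus Cd4 changed by 0.83, but that mean takes in 1427779_a_at of Cd4, whose tumour readings lie near background. With a pseudocount of 16 added to every reading before that mean, an alternative added after seeing the data, it changed by -0.05, so the mean of probe sets gives no order of Cd4 and Cd8a.

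**Figure D3:**
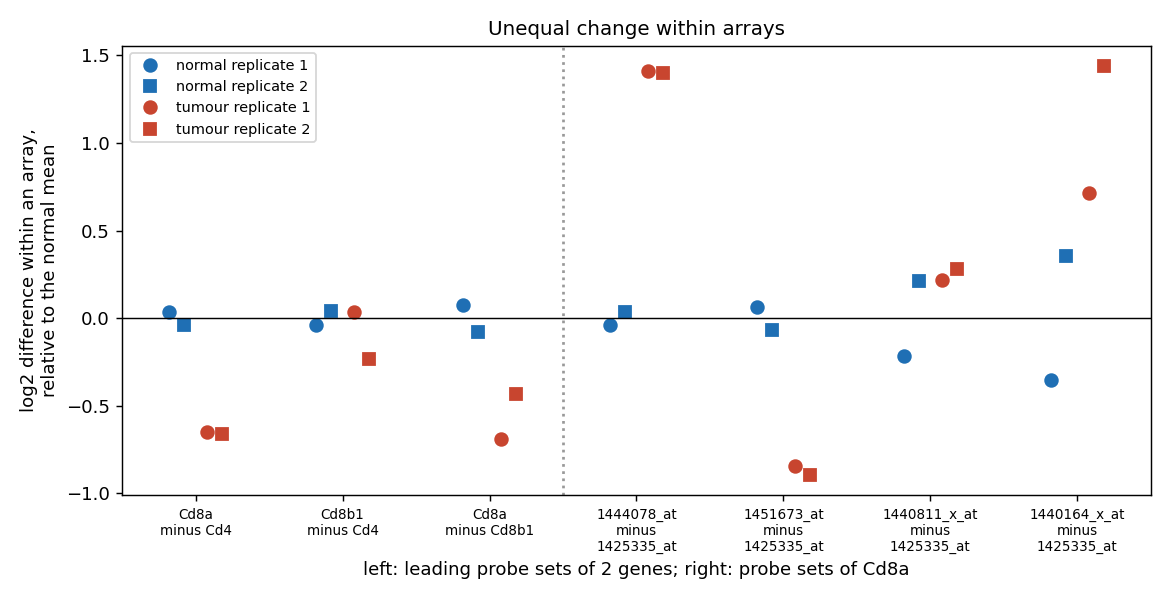
Log2 difference within each array, set to 0 at the mean of the normal arrays, for the leading probe sets of gene pairs (left of the dotted line) and for the Cd8a probe sets against 1425335_at (right). Blue is normal and red is tumour, and circles and squares are replicates 1 and 2. Cd8a minus Cd4 lies 0.66 lower in the tumour arrays, Cd8b1 minus Cd4 overlaps between groups, and 1444078_at and 1451673_at move in opposite directions against 1425335_at.

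The co-receptors were next set beside the rest of the DP programme, with 1 probe set per gene. All 19 measured genes of a DP stage list fell and 0 rose (limma, adjusted over 18193 genes), where 12.4% of all genes were called lower and 17.3% higher. The list had a median log2 difference of -1.22, against 0.09 over all genes. It was drawn up with earlier results of these data known, so its direction is not independent evidence. With the constant prior 8 of the 19 fell and 0 rose, against 401 and 759 of all 18193 genes. Only 1 of the 19, Ly6d, fell by more than any of the 3 co-receptor genes. Ly6d, a surface protein of early lymphoid cells, read 6503 and 6119 in the normal arrays and 344 and 300.02 in the tumour arrays (-4.30 ± 0.09, log2, SE, adjusted p = 7.89e-09). The losses were smaller for Slamf1, a receptor of the SLAM family (-1.99 ± 0.10, adjusted p = 7.87e-07), and for Rag2, which cuts DNA in receptor rearrangement (-1.92 ± 0.10, adjusted p = 1.00e-06). Dntt, the enzyme that adds bases at receptor joints, fell by 1.80 on the log2 scale, with Rag1, the partner of Rag2, at -0.97. Of all 18193 genes, 1.75% had a more negative difference than Cd8a, 3.56% than Cd8b1 and 4.10% than Cd4.

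Genes that act with the co-receptors in TCR signalling were called in both directions. This list too was drawn up with earlier results of these data known, and it shares Themis and Tespa1 with the DP list. Of 26 measured partners, 16 fell and 4 rose, with a median of -0.44 (log2). Of all genes, 12.4% were called lower and 17.3% higher. After scaling to the hybridization controls 22 partners fell and 4 rose, and of all 18193 genes 5250 fell and 1330 rose. With the constant prior 7 partners fell and 2 rose, against 401 and 759 of all genes. Lck itself was not analysed here. Cd247, the zeta chain of the TCR complex, read 3165.5 and 3270.05 in the normal arrays and 553 and 570.2 in the tumour arrays, a difference of -2.52 ± 0.08 (log2, SE, limma adjusted p = 4.97e-08). Cd5, a receptor that dampens TCR signals, fell by 2.45 ± 0.11 (adjusted p = 3.34e-07), and Cd69, which TCR signals induce, by 1.85 ± 0.18 (adjusted p = 3.63e-05). Among the other CD3 chains, Cd3g fell by 0.56, and Cd3e did not pass (-0.22 ± 0.11, adjusted p = 0.163) but did without normal replicate 2 (-0.39, adjusted p = 0.0137) and after scaling to the hybridization controls. Cd3d (-0.22) and Zap70, the kinase recruited to the phosphorylated chains (-0.35), passed with all 4 arrays, but the call ended for Cd3d without normal replicate 1, tumour replicate 1 or tumour replicate 2 (adjusted p up to 0.149) and for Zap70 without normal replicate 1 or tumour replicate 1 (up to 0.129). Zap70 was at 0.26 with the mean of its probe sets (adjusted p = 0.144). Fyn, a kinase of the same family as Lck, rose by 1.52 ± 0.11 (adjusted p = 4.98e-06), and Unc119, an adaptor for Src-family kinases, rose by 2.25 ± 0.18 (adjusted p = 1.28e-05).

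**Figure D4:**
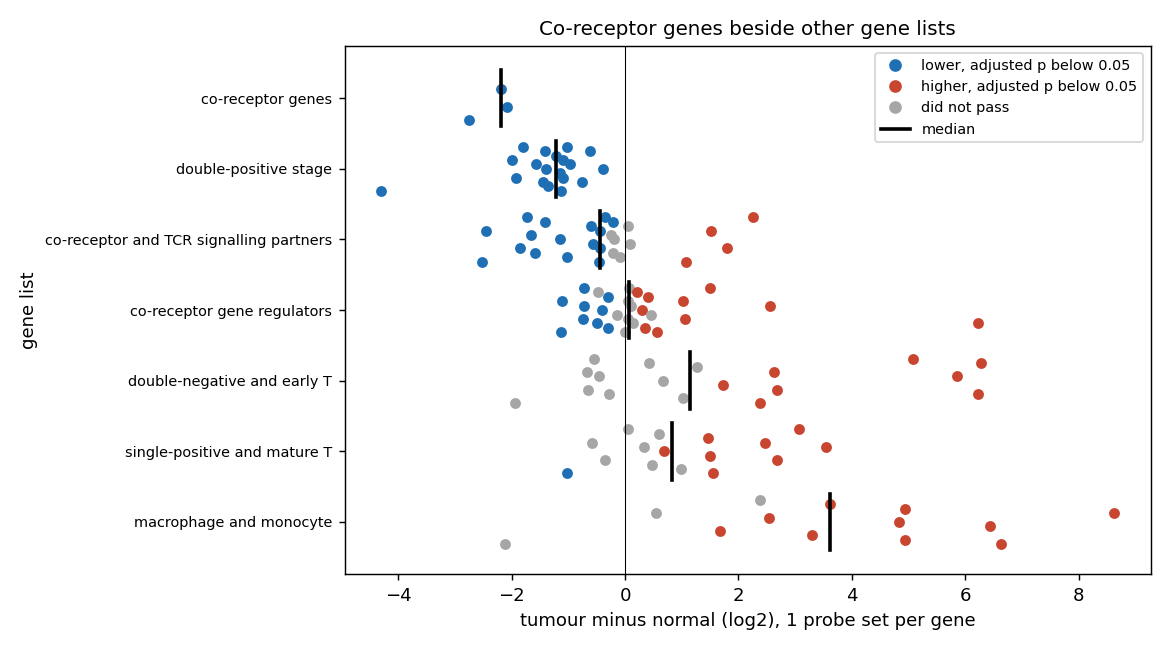
Tumour minus normal difference (log2) of each gene on its leading probe set, for the 3 co-receptor genes and 6 gene lists, with blue for genes called lower, red for genes called higher, grey for genes that did not pass and a black bar for the median. The co-receptor genes lie between -2.75 and -2.09, and the DP stage list has its median at -1.22 with Ly6d at -4.30.

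Factors known to control the co-receptor genes went both ways. Their list shares Satb1 with the DP list and Hes1 with the list of early T cells below. It also shares Runx3 and Zbtb7b with the list of mature T cells below. Of 28 measured regulators, 10 rose and 9 fell, with a median of 0.06 (log2). Scaling to the hybridization controls lowers every gene by the same amount; with it 5 regulators rose and 18 fell, and of all 18193 genes 1330 rose and 5250 fell, against 3156 and 2251 as deposited. With the constant prior 1 regulator rose, Hes1, and 0 fell, against 759 and 401 of all genes. Satb1, a chromatin organiser that acts at the enhancers of both co-receptor loci, read 12288 and 12929 in the normal arrays and 5781 in both tumour arrays, and fell by 1.12 ± 0.05 (log2, SE, limma adjusted p = 4.64e-07). Zfp281 fell by 1.11 on the log2 scale. Id2, an inhibitor of E proteins, read 108 and 179 in the normal arrays and 706 and 935 in the tumour arrays (2.55 ± 0.22, adjusted p = 2.11e-05). Hes1, a repressor induced by Notch, did not exceed background on either normal array and in the tumour arrays stood at least 34.8-fold higher (adjusted p = 3.83e-06). Runx3, which silences Cd4 in CD8 cells, rose from 96.7 and 78.4 to 237 and 257 on its leading probe set (1.5 ± 0.17, adjusted p = 0.00013), but with the mean of its probe sets it differed by -0.50 and did not pass. Runx1 (-0.15 ± 0.08, adjusted p = 0.235) and the E protein Tcf3 (0.01 ± 0.09, adjusted p = 0.968) did not pass as deposited, and both were called lower after that scaling. Tcf12, another E protein, passed with all 4 arrays (0.40) but not without normal replicate 1 (adjusted p = 0.0544) or tumour replicate 2 (0.0965), and was at -0.20 after the scaling (0.152) and 0.015 with the mean of its probe sets (0.942). Zbtb7b, which keeps Cd4 on in CD4 cells, was above background on only 1 array of each group.

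Genes of the stages before and after DP were read in the same way. The lists of both stages hold Il7r, which rose and is counted in each. Over all 18193 genes, 17.3% were called higher and 12.4% lower, with a median of 0.09 (log2). Of 18 genes of double-negative and early T cells, 8 rose and 0 fell, with a median of 1.14 (log2). Of those 8, 5 belong to the Notch pathway: Notch1 itself, Notch3, Dtx1, Hes1 and Nrarp. The others were Il2ra, Ptcra and Il7r. The remaining 10, Kit, Cd44, Hhex, Lyl1, Lmo2, Bcl11a, Spi1, Erg, Flt3 and Mycn, did not pass. Il2ra, the interleukin 2 receptor alpha chain that marks cells before the co-receptors appear, read 24.1 and 24.2 in the normal arrays and 1298 and 1522 in the tumour arrays (5.86 ± 0.15, SE, limma adjusted p = 1.81e-08). The Notch targets Dtx1 and Nrarp rose by 6.27 ± 0.10 (adjusted p = 2.1e-09) and 5.07 ± 0.12 (adjusted p = 1.27e-08). Of 16 genes of single-positive and mature T cells, 8 rose and 1 fell, with a median of 0.83. Klf2, a factor of thymic exit, rose by 3.06 ± 0.15 (adjusted p = 6.58e-07) and Itgae, the integrin CD103, by 3.55 ± 0.22 (adjusted p = 2.71e-06), though Itgae did not pass when _x_at and _s_at probe sets were left out (1.08, adjusted p = 0.144).

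Some other cells can carry co-receptors, so markers of other cells, whether or not they carry a co-receptor, are given beside the losses. Over all 18193 genes, 17.3% were called higher and 12.4% lower. In lists this short a count of 1 lies near those shares and is no result about the cells. The counts are not separate from those of the stage lists above. Il2ra is on the early T and regulatory T lists, and Flt3 on the early T and CD8a+ dendritic lists. Nkg7 and Eomes are on the mature T and NK lists. For dendritic cells of the CD8a+ type, 4 of 9 markers rose and 0 fell, and their summed intensity was 146 to 159 in the normal arrays and 431 to 447 in the tumour arrays. Their defining receptor Xcr1 exceeded background on 1 tumour array and on no normal array. Macrophage and monocyte genes rose in 10 of 13 cases and fell in 0, with a sum of 128 to 175 in the normal arrays and 2295 to 2422 in the tumour arrays; 7 of the 13 exceeded background on no normal array. Of 9 plasmacytoid dendritic markers, 2 rose and 3 fell, and the sum was 16323 to 20135 in the normal arrays and 4766 to 5343 in the tumour arrays; it is carried by Ly6d and Ccr9, which are also on the DP list. Of 11 NK and cytotoxic markers, 7 rose and 0 fell, or 4 without tumour replicate 1. Their sum was 1232 to 1244 against 5843 to 5849, and most of it is 1 gene, the granzyme Gzma, at 1034 and 1035 in the normal arrays and 5030.1 and 5040.5 in the tumour arrays. For gamma-delta T cells 5 of 7 rose and 0 fell, for regulatory T cells 4 of 8 rose and 1 fell with Foxp3 at or below background on all 4 arrays, for B cells 1 of 8 rose and 1 fell with Pax5 and Cd79a at or below background on all 4, for thymic epithelium and stroma 1 of 10 rose (0 with any 1 array left out) and 2 fell (1 without normal replicate 1), and for erythroid cells 1 of 5 rose and 0 fell. With the constant prior, 0 of the CD8a+ dendritic markers, 7 of the macrophage and monocyte genes and 3 of the NK and cytotoxic markers rose. Of all 18193 genes, 759 rose with that prior. The part of these cells in the co-receptor losses was not tested.

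Both co-receptor loci lie on chromosome 6, where Cd8b1 and Cd8a are next to each other. On leading probe sets, none of the nearest measured genes fell by as much as Cd4, Cd8a or Cd8b1. That order holds for leading probe sets only. Ptms, at -1.41 (log2), fell by more than 1444078_at of Cd8a (-1.34), and Smyd1 without _x_at and _s_at probe sets was at -2.0. Of the 6 nearest to Cd4, 3 on each side, 3 fell and 1 rose, where 12.4% of all genes were called lower and 17.3% higher. Gpr162, an orphan receptor on one side of Cd4, fell by 0.90 ± 0.14 (log2, SE, limma adjusted p = 0.000783). Lag3, an inhibitory receptor related to CD4 that lies on its other side, read 49.6 and 33.8 in the normal arrays and 116 and 174 in the tumour arrays, a rise of 1.79 ± 0.29 (adjusted p = 0.000963). Beyond Lag3, Ptms fell by 1.41 ± 0.10 and Mlf2 by 0.49 ± 0.12, while P3h3 (-0.15) and Gnb3, at or below background on all 4 arrays, did not pass. Of the 6 nearest to the Cd8 pair, 2 fell and 1 rose. Rmnd5a, a subunit of a ubiquitin ligase, read 7114 and 7892 against 3369 and 3404 (-1.15 ± 0.07, adjusted p = 1.63e-06), and Krcc1 fell by 0.41 ± 0.12. Smyd1, a muscle methyltransferase, differed by 1.20 ± 0.36 (adjusted p = 0.0328) on an _x_at probe set and by -2.0 (adjusted p = 0.0353) without such probe sets. Rnf103 (0.25, and -0.63 with adjusted p = 0.00701 without such probe sets), Chmp3 (0.33) and Gm1070, at or below background on all 4 arrays, did not pass. With so few genes, these counts are a description beside the shares over all genes. Some calls also ended when 1 array was left out: Krcc1 without normal replicate 2 or either tumour replicate (adjusted p 0.0819 to 0.215), Mlf2 without normal replicate 1 (0.0938) or tumour replicate 1 (0.0940), and Smyd1 without normal replicate 1 or either tumour replicate (0.0849 to 0.151). Krcc1 also did not pass with the mean of probe sets (0.0535). With the constant prior none of the calls for Gpr162, Lag3, Mlf2, Rmnd5a, Krcc1 and Smyd1 held.

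The genes most like each co-receptor gene were sought by the root mean square difference between log2 profiles over the 4 arrays, each centred on its own mean, among 6361 other genes whose mean was at least 7 (log2). For Cd4 they were Lgals1 (0.018), Pisd-ps3 (0.031) and Mef2a (0.049). For Cd8a they were Sla (0.046), Nebl (0.063) and Rnf130 (0.070). For Cd8b1 they were Selenok (0.048), Fam102b (0.062) and Ssbp2 (0.080). By the same measure Cd8b1 lay 0.11 from Cd4 and 0.30 from Cd8a, and Cd8a lay 0.33 from Cd4. With 4 arrays in 2 groups, this likeness mainly ranks genes by the size of their difference between the groups.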

How the data were processed

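Total RNA was labelled by 3' in vitro transcription and hybridized, per the labels' protocols. The intensities deposited by the authors, 1 for each probe set on each of 4 arrays, are linear, run from 0.08 to 19270.2 and have nearly the same distribution on every array. The submitters' processing notes name RMA without a version; values below 1 are unusual for RMA, so the summarisation is not settled. Arrays were grouped by title. Log2 was taken with no offset or filter. Probe sets were named from GEO's platform annotation (34945 with 1 symbol); 64 controls were left out of tests. Tests used limma 3.58.1 in R 4.3.3 (lmFit, eBayes with trend and robust prior), with Benjamini-Hochberg adjustment over 45037 probe sets or 18193 genes at 0.05. The fit was checked on simulated data whose spread followed the level by design, so that check cannot decide between the variance priors. The number of arrays limits the precision. A gene's leading probe set has its highest mean log2. "At least N-fold" raises a dim group to its background level. Named genes were the members, Notch1, per list up to 4 called genes with the largest change (or the 2 largest), 3 measured neighbours per side and the 3 nearest profiles per member; genes named beyond these were chosen after their values were seen, and lists of other cells are given mainly as counts. Members, lists and fit were chosen with earlier results of these data known. Alternatives were a constant variance prior (no trend, not robust), scaling, pseudocount, filter, threshold, probe set choice, replicate block and each array left out. Protein sequences were not used here.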

Additional observations from a re-analysis of the deposited data

Results flagged for a closer look

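The 5' control probe set for 18S ribosomal RNA, which no comparison above used, read higher in the tumour arrays. The 5' probe set read 2495 and 2359 in the normal arrays and 8553 and 8636 in the tumour arrays, a 3.54-fold difference of the means, in the opposite direction to the co-receptor probe sets. Its part in the co-receptor results was not tested.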

How the results depend on the processing

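All 8 co-receptor probe sets kept a negative log2 difference under each of the 13 alternatives, but under most of them the sign could not turn. Prior, filter, threshold and replicate block leave the difference unchanged. With both tumour arrays below both normal ones, leaving out 1 array or adding a pseudocount keeps the sign, and scaling to hybridization controls lowers every difference. The call was kept by 7 of the 8 in each alternative but the constant variance prior. For 1427779_a_at of Cd4 the call also ended without normal replicate 1. With the constant prior, 0 of 8 passed, as did 0 higher and 0 lower of all probe sets, while with 1 probe set per gene 401 genes were lower and 759 higher and Cd4 (adjusted p = 0.0354), Cd8a (0.0338) and Cd8b1 (0.0386) passed. Scaling to hybridization controls gave 11539 lower and 2074 higher probe sets, and 5250 lower and 1330 higher genes. The mean of probe sets gave 1865 higher genes. With 1 array left out, 3184 to 4386 probe sets were lower and 3325 to 3983 higher. Cd8a minus Cd4 changed by -0.73 with the pseudocount. With the mean of probe sets, Cd8a minus Cd4 changed by 0.83, Cd8b1 minus Cd4 by 1.02 and Cd8a minus Cd8b1 by -0.19, but the values against Cd4 take in 1427779_a_at, read near background in the tumour arrays. With that mean and the pseudocount together, chosen after seeing the data, they were -0.051, 0.079 and -0.13. Leaving out 1 array gave Cd8b1 minus Cd4 between -0.23 and 0.036, the latter, of opposite sign, without tumour replicate 2. The opposite sign with a call was found for the regulatory T marker Ikzf2 with the mean of probe sets (-0.92, adjusted p = 0.00701) and Smyd1 without _x_at and _s_at probe sets (-2.0, 0.0353). Calls were lost, with the sign turned, for the plasmacytoid marker Klk1 (-0.52, 0.729), Runx3 (-0.50, 0.502), Smyd1 (-1.39, 0.117) and Zap70 (0.26, 0.144) with that mean, Klk1 (-2.29, 0.192) without those probe sets and Tcf12 (-0.20, 0.152) after scaling to hybridization controls. With the mean, the calls for Cd22, Epcam, Naaa, Wdfy4, Ccl5, Krcc1 and Tcf12 also ended, with the sign kept. The cause of these shifts was not tested. The replicate numbers are shared between the groups in the labels, with nothing that says they pair samples. Deviations of same-numbered arrays correlated at 0.25 over 10772 probe sets, and those of arrays with crossed numbers at -0.25. With 2 arrays per group these values mirror each other by construction, so they do not show that the numbers pair samples. With the replicate number as a block, 8 of 8 co-receptor probe sets passed, with 6125 higher and 6319 lower probe sets in all.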
